A study of Mus musculus with 12 samples.

Results

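The genes described are Adamtsl2, the fibrillins Fbn1 and Fbn2, the latent TGF-beta binding proteins Ltbp1, Ltbp2, Ltbp3 and Ltbp4, and the TGF-beta ligands Tgfb1, Tgfb2 and Tgfb3. They are 10 of the 54532 genes in the deposited count table, taken by gene name, and all 10 passed the filter on low counts that left 16393 genes. Adamtsl2 was selected on its rise in the knockout against control comparison described here. The other 9, from the families named above, were chosen with earlier results of these data known. RNA was sequenced from whole tibialis anterior muscle of mice, the muscle at the front of the shin, 5 days after injury by glycerol, an agent after which adipocytes form between the fibres. The knockout group held 6 libraries labelled FAP no ppary, meaning that Pparg, the master regulator of fat cell formation, was removed from fibro-adipogenic progenitors (FAPs). FAPs are the stromal cells between the fibres, which give rise to fibroblasts and fat cells. The control group held 6 libraries labelled wild type. The labels enter 129svlmJ in a cell line field for every library, and all libraries had the same injury and time. The labels used here name no Cre driver or floxed allele, no age, and no animal for each library; the p-values therefore speak only for the spread among these libraries.

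Fibrillins assemble into microfibrils, the thread-like scaffolds of the matrix that also carry elastin. TGF-beta ligands are made as precursors whose propeptide stays bound to the ligand and keeps it inactive. LTBP1, LTBP3 and, for TGF-beta1, LTBP4 hold this latent complex and tie it to the matrix and to fibrillin microfibrils, while LTBP2 does not bind latent TGF-beta. ADAMTSL2 is a secreted glycoprotein without protease activity that binds fibrillin-1 and LTBP1, and in humans mutations of ADAMTSL2, FBN1 or LTBP3 cause geleophysic dysplasia, a disorder of short stature and stiff joints. In injured muscle, TGF-beta is known as a signal for fibroblasts and FAPs to deposit matrix.

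Adamtsl2 (ENSMUSG00000036040) lies on chromosome 2 from 27079379 to 27108981 on the plus strand of GRCm38, and Ltbp3 (ENSMUSG00000024940) on chromosome 19 from 5740904 to 5758532 on the plus strand. These 2 genes had the largest positive and the largest negative log2 fold change of the 10, so the 250 bases before their RefSeq starts (GRCm38.p6, plus strand, 5′ to 3′) are shown. Capitals mark TATAAA, the letters of a TATA box, and GGGCGGGG, the reverse complement of the GC-rich motif CCCCGCCC.
Adamtsl2, chr2:27079129-27079378: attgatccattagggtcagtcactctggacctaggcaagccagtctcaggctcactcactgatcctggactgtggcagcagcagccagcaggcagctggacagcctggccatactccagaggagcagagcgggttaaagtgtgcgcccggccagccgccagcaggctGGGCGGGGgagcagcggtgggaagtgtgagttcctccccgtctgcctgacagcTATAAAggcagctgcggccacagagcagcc
Ltbp3, chr19:5740650-5740899: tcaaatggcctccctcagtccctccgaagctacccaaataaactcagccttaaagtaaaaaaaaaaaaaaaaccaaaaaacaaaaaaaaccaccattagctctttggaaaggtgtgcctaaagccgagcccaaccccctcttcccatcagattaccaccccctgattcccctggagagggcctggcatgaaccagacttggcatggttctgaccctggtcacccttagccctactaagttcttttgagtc
In the Adamtsl2 window TATAAA began 30 bases before the start. The GC content was 62.8% for Adamtsl2 and 47.2% for Ltbp3, against a median of 52.4% over all 32851 promoters of the same length. Searched on both strands, TATAAA occurred in 12.4% and CCCCGCCC in 16.1% of all these promoters. CAGACA, a SMAD-binding sequence, occurred in 17.1%, and the direct repeat element of PPAR and RXR in 0.0335%; neither was found in the windows of Adamtsl2 and Ltbp3. Of the 10 genes, 8 matched the RefSeq promoter table. Tgfb2 was the other gene with TATAAA, which began 31 bases before its start. CAGACA occurred in 1 of the Ltbp1 windows and in the Tgfb2 window, and CCCCGCCC in a Ltbp4 window and the Tgfb1 window.

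Library totals ranged from 15716056 to 29790720 counts. Values below in CPM (counts scaled to a common library size) use TMM, which corrects library sizes for differences in RNA composition. Pparg, the deleted gene, stood at 15.6 to 43.1 CPM in knockout libraries and at 45.0 to 67.4 CPM in control libraries, with no overlap between the groups. Over all tested genes 131 passed an adjusted p of 0.05 in edgeR's quasi-likelihood test with Benjamini-Hochberg adjustment, 8 higher and 123 lower in the knockout, and this count was between 6 and 214 when each library was left out in turn.

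Adamtsl2 was higher in the knockout. The knockout libraries ranged from 7.58 to 11.9 CPM with a median of 9.48, and the control libraries from 3.30 to 7.0 CPM with a median of 5.27. All 6 knockout libraries lay above all 6 controls, with knockout replicate 5 (7.58 CPM) and control replicate 6 (7.0 CPM) closest to each other. The means were 9.43 ± 1.69 CPM in knockout and 5.11 ± 1.36 CPM in control libraries (SD, n = 6 each), a log2 fold change of 0.88 (SE 0.18) or 1.84-fold. These are the values by which the gene was picked, so they are a description and not a test. In RNA of whole muscle, a different number of cells of a type and a different amount of RNA per cell cannot be told apart, here and in all results that follow. Over all tested genes, 0.0488% passed the adjusted threshold as higher, and 0.159% lay above all controls in every knockout library. Among the 8 higher genes that passed, Adamtsl2 had the largest log2 fold change. Tcf7, with an adjusted p of 0.0457, was the last of these 8 by p and Gbp9, at 0.0534, the first beyond the threshold (edgeR quasi-likelihood). With each library left out in turn, the log2 fold change of Adamtsl2 stayed between 0.80 and 0.99, but the gene passed the threshold in 3 of the 12 fits only, those without knockout replicate 1, knockout replicate 2 or control replicate 6.

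The counts behind these values were low. Adamtsl2 had between 59 and 361 reads per library, against between 6729 and 18241 for Fbn1. Only 0.135% of the 50-base words of its longest transcript occurred in another gene, and no annotated gene of GENCODE M21 overlapped it. The nearest protein-coding gene at lower coordinates was Mymk, 7200 bases away, which encodes the myoblast fusion protein myomaker. Its log2 fold change was 0.29 (adjusted p = 0.452, edgeR quasi-likelihood). Fam163b, 1399 bases away on the other side, was not tested.

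**Figure D1:**
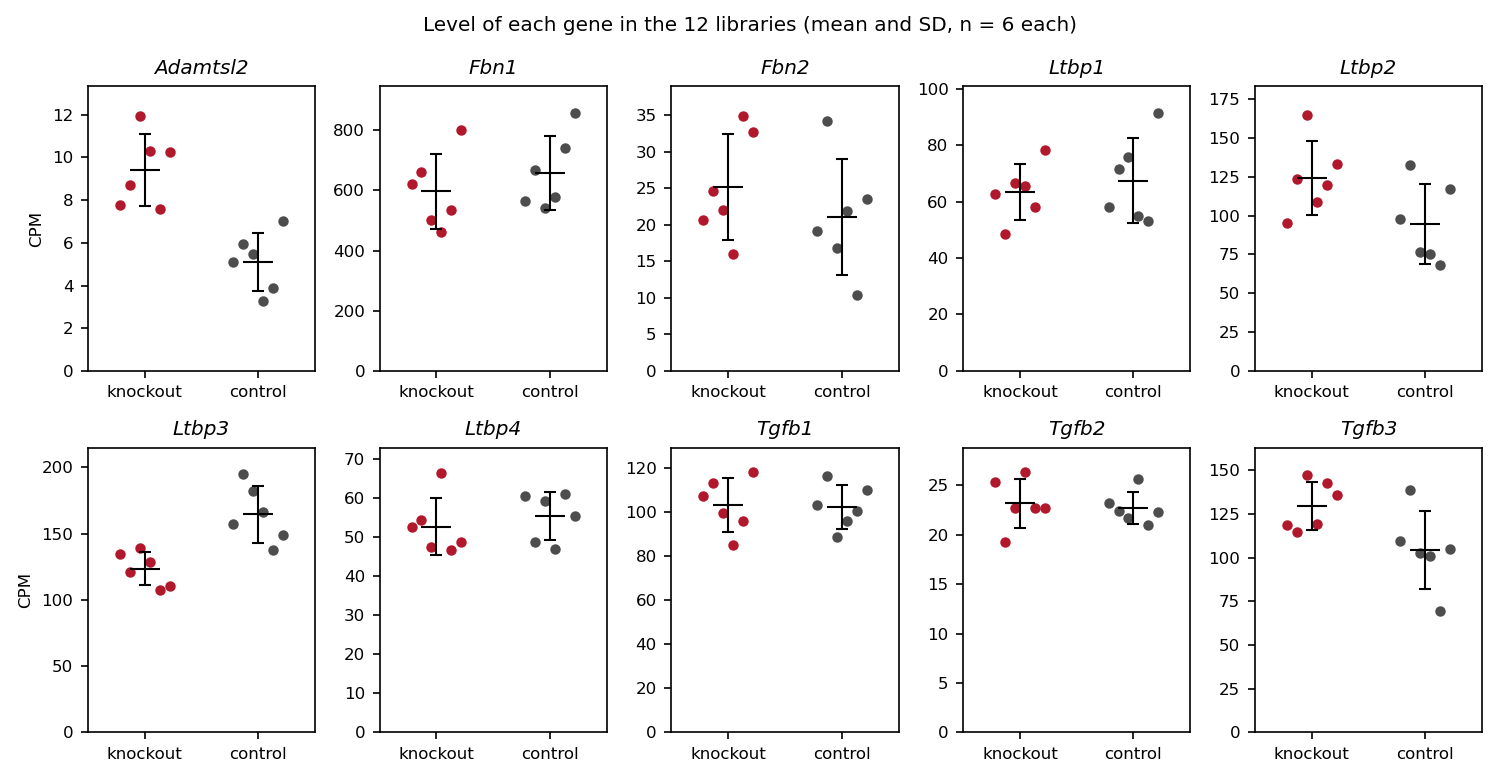
CPM of each of the 10 genes in the 6 knockout and 6 control libraries, with the mean and SD of each group. Each point is a library in order of replicate number, and every vertical axis starts at 0. The groups are apart for Adamtsl2 (7.58 to 11.9 against 3.30 to 7.0 CPM) and overlap for the other 9 genes.

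The other 9 genes showed no common direction. None of them passed the adjusted threshold (0 of 9, edgeR quasi-likelihood), against 0.799% of all tested genes. At an unadjusted p of 0.05 there were 3 of 9, against 9.47% of all tested genes: Ltbp2 and Tgfb3 had higher means and Ltbp3 a lower mean in the knockout. Log2 fold changes were positive for 5 and negative for 4. Their median was 0.01, and the median of all tested genes was 0.00. The groups overlapped for all 9, while 1.43% of all tested genes had groups apart in either direction and 1.27% had every knockout library below all controls. DESeq2 and limma-voom each called 1 of the 9, which was Ltbp3, and limma on the FPKM values called 0. Both tools called more genes over the whole table than edgeR's 131, DESeq2 372 of 31950 and limma-voom 389 of 16393. With each library left out in turn, edgeR called 0 of the 9 in every fit.

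**Figure D2:**
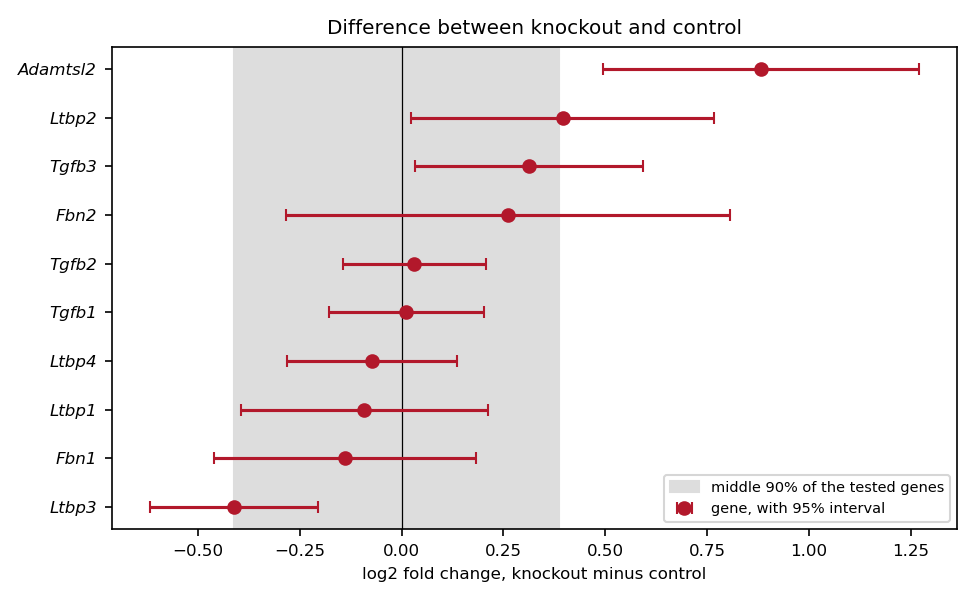
Log2 fold change, knockout minus control, of the 10 genes with 95% intervals from the edgeR fit. The grey band holds the middle 90% of all tested genes, from -0.41 to 0.39. Adamtsl2 lies above the band at 0.88, Ltbp2 at its upper edge (0.40) and Ltbp3 at its lower edge (-0.41).

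Among the binding proteins of the ligands, Ltbp3 had the largest difference. It ranged from 108 to 139 CPM in knockout libraries with a median of 125, and from 138 to 195 CPM in control libraries with a median of 162. Of the 6 knockout libraries 5 lay below all controls, and only knockout replicate 3 (139 CPM) reached the lowest control, replicate 5 (138 CPM). The means were 124 ± 12.8 CPM in knockout and 165 ± 21.3 CPM in control libraries (SD, n = 6 each), a log2 fold change of -0.41 (SE 0.10, 95% interval -0.62 to -0.21). The adjusted p over all tested genes was 0.0738 with edgeR's quasi-likelihood test, and 0.0537 to 0.180 with single libraries left out. It was 0.00861 with DESeq2 and 0.0304 with limma-voom.

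Ltbp2, which encodes the family member that sits on microfibrils without carrying TGF-beta, was unevenly spread. It ranged from 95.3 to 165 CPM in knockout libraries with a median of 122, and from 68.0 to 132 CPM in control libraries with a median of 87.0. Knockout replicates 3 and 6 lay above all controls, and the other 4 lay within their range. This gave a log2 fold change of 0.40 (SE 0.17), an unadjusted p of 0.0389 and an adjusted p of 0.476 (edgeR quasi-likelihood). Without knockout replicate 3, which had the highest value, the log2 fold change was 0.30.

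Ltbp1 and Ltbp4 differed by less than the spread between libraries. Ltbp1, whose product carries latent TGF-beta and binds ADAMTSL2, stood at 63.3 ± 9.90 CPM in knockout and 67.5 ± 14.9 CPM in control libraries (SD, n = 6 each). Its log2 fold change of -0.09 had a 95% interval from -0.40 to 0.21. Ltbp4, whose product takes part in elastic fibre assembly, stood at 52.7 ± 7.37 CPM in knockout and 55.3 ± 6.15 CPM in control libraries (SD, n = 6 each). Its log2 fold change was -0.07, with a 95% interval from -0.28 to 0.14. The Ltbp1 values ran from 48.4 to 78.2 CPM in knockout and from 53.2 to 91.4 CPM in control libraries, so each group covered most of the other's range.

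Of the ligands, Tgfb3 had the largest difference, with a higher mean in the knockout that did not pass the adjusted threshold. It ranged from 114 to 147 CPM in knockout libraries with a median of 127, and from 69.4 to 139 CPM in control libraries with a median of 104. Control replicate 2 (139 CPM) lay among the knockout libraries, and control replicate 5 (69.4 CPM) was the lowest of all. The means were 130 ± 13.9 CPM in knockout and 104 ± 22.1 CPM in control libraries (SD, n = 6 each), a log2 fold change of 0.31 (SE 0.13) with an unadjusted p of 0.0309 and an adjusted p of 0.436 (edgeR quasi-likelihood). Without control replicate 5 the log2 fold change was 0.23. Tgfb3 shares 5149 bases with Ttll5 on the opposite strand. The log2 fold change of Ttll5 was 0.20 (adjusted p = 0.633, edgeR quasi-likelihood), and whether reads were counted by strand is unknown here.

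Tgfb1 and Tgfb2 had the log2 fold changes closest to 0 of the 10 genes, at 0.01 and 0.03. Tgfb1, the ligand most often tied to fibrosis, stood at 103 ± 12.1 CPM in knockout and 102 ± 9.86 CPM in control libraries (SD, n = 6 each). Its 95% interval allowed a fold from 0.883 to 1.15. Tgfb2 stood at 23.2 ± 2.47 CPM in knockout and 22.7 ± 1.64 CPM in control libraries (SD, n = 6 each), with a 95% interval of the fold from 0.904 to 1.15. The SD of Tgfb2 was 10.7% of its mean in knockout and 7.20% in control libraries, the lowest share among the 10 genes in controls. For Fbn2 the same share was 29.0% in knockout and 37.8% in control libraries.

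The fibrillins did not pass the threshold either. Fbn1, the main fibrillin of adult tissue, ranged from 462 to 800 CPM in knockout libraries with a median of 579, and from 541 to 857 CPM in control libraries with a median of 622. Its log2 fold change was -0.14 (SE 0.15, 95% interval -0.46 to 0.18). The highest library of each group was knockout replicate 6 and control replicate 6. Fbn2, the fibrillin best known from development, ranged from 16.1 to 34.9 CPM in knockout libraries with a median of 23.3, and from 10.4 to 34.2 CPM in control libraries with a median of 20.5. Its log2 fold change was 0.26 (SE 0.25, 95% interval -0.28 to 0.81). This is the widest interval of the 10 genes, and it spans changes in both directions. Single libraries moved both values: Fbn2 stood at 0.13 without control replicate 5 and 0.46 without control replicate 2, and Fbn1 at -0.05 without control replicate 6 and -0.24 without knockout replicate 6.

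Levels of different genes were compared in FPKM, the authors' deposited values per gene length. Fbn1 was highest, at 48.9 ± 10.3 FPKM in knockout and 53.6 ± 10.2 FPKM in control libraries (SD, n = 6 each). Adamtsl2 was lowest, at 1.17 ± 0.21 FPKM in knockout and 0.63 ± 0.17 FPKM in control libraries (SD, n = 6 each). In knockout libraries the order ran Fbn1, Tgfb3, Ltbp3, Tgfb1, Ltbp2, Ltbp4, Ltbp1, Tgfb2, Fbn2 and Adamtsl2. The control order was the same, except that Ltbp3 stood above Tgfb3.

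Several neighbours in this order had overlapping ranges. In knockout libraries these were Fbn1 and Tgfb3, Ltbp3 and Tgfb1, Tgfb1 and Ltbp2, and Ltbp4 and Ltbp1. In control libraries they were Ltbp3 and Tgfb3, Tgfb3 and Tgfb1, Ltbp2 and Ltbp4, and Ltbp4 and Ltbp1. Tgfb3 averaged 38.0 ± 4.06 FPKM in knockout and 30.5 ± 6.43 FPKM in control libraries, and Ltbp3 averaged 23.7 ± 2.46 FPKM in knockout and 31.3 ± 4.03 FPKM in control libraries (SD, n = 6 each). Tgfb3 exceeded Ltbp3 in 6 of 6 knockout libraries and in 3 of 6 control libraries.

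**Figure D3:**
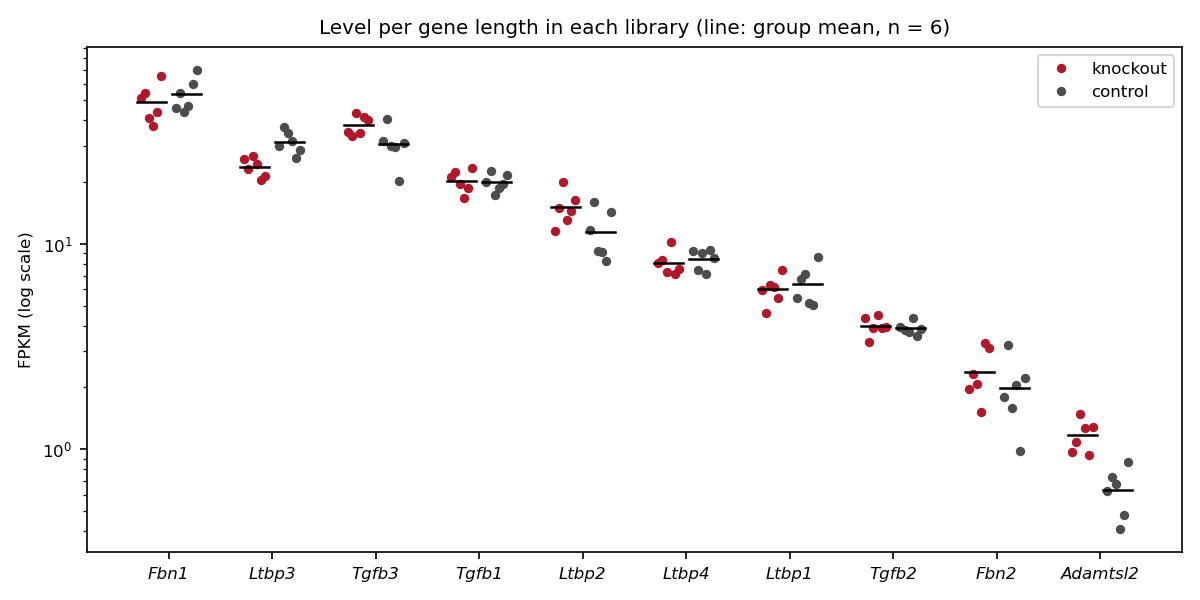
FPKM of the 10 genes in each library on a log axis, ordered by the control mean, with lines at the group means. Fbn1 is highest (48.9 FPKM in knockout and 53.6 in control libraries) and Adamtsl2 lowest (1.17 in knockout and 0.63 in control libraries).

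The make-up of the ligand and binding protein transcripts was compared as ratios of summed FPKM, which are not affected by library scaling. The 3 ligands summed to 62.3 ± 4.49 FPKM in knockout and 54.3 ± 7.73 FPKM in control libraries (SD, n = 6 each). The 3 binding proteins that carry latent TGF-beta, Ltbp1, Ltbp3 and Ltbp4, summed to 37.8 ± 3.06 FPKM in knockout and 46.1 ± 4.22 FPKM in control libraries (SD, n = 6 each). The ratio of the first sum to the second was 1.66 ± 0.21 in knockout and 1.18 ± 0.12 in control libraries (SD, n = 6 each). All 6 knockout libraries (1.37 to 1.94) lay above all controls (1.00 to 1.31). The difference in the log2 ratio was 0.49, and between 0.45 and 0.55 with each library left out in turn. The genes entering the ratio were chosen with results of these data known, so it is a description with no test. Tgfb3 was the largest part of the ligand sum and Ltbp3 of the binding protein sum. The ratio is therefore not independent of the differences given above for these genes.

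Within the ligands, Tgfb3 gave 61.0% ± 3.47 of the summed FPKM in knockout and 55.6% ± 4.81 in control libraries, and Tgfb1 gave 32.6% ± 3.61 in knockout and 37.2% ± 4.23 in control libraries (SD, n = 6 each). In 3 of 6 knockout libraries the Tgfb1 share was below every control. Within the 4 LTBPs, Ltbp3 gave 44.8% ± 3.18 in knockout and 54.5% ± 4.18 in control libraries, and Ltbp2 gave 28.5% ± 4.14 in knockout and 19.6% ± 3.69 in control libraries (SD, n = 6 each). The Ltbp3 share lay below all controls, and the Ltbp2 share above all controls, in 5 of 6 knockout libraries. The Ltbp4 share was 15.4% ± 2.23 in knockout and 14.9% ± 2.72 in control libraries (SD, n = 6 each), well within the spread. Fbn2 stood at 4.91% ± 1.36 of Fbn1 in knockout and 3.77% ± 1.42 in control libraries (SD, n = 6 each), again with overlapping ranges. Without control replicate 5, the log2 difference of this ratio was 0.22 in place of 0.44, and the difference in the Tgfb1 share -3.00 in place of -4.59 percentage points. The difference in the Ltbp4 share, 0.48 percentage points, turned to -0.28 without control replicate 2 and was 1.33 without control replicate 5. The shares of Ltbp2, Ltbp3 and Tgfb3 were chosen for display after their values were seen.

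**Figure D4:**
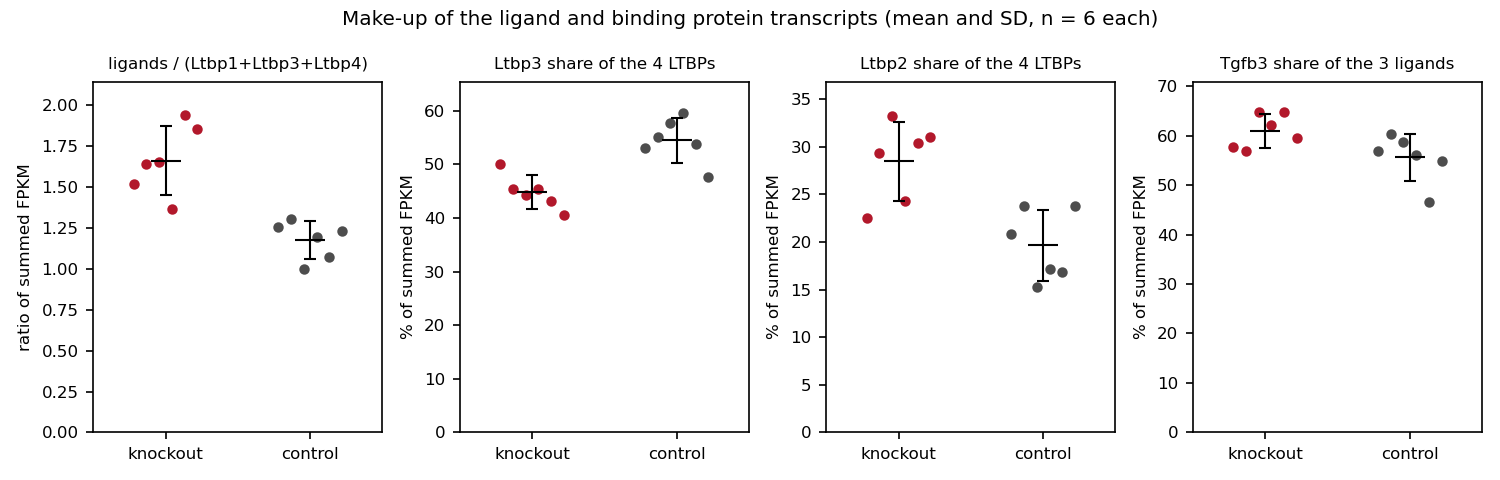
Ratio of the summed FPKM of Tgfb1, Tgfb2 and Tgfb3 to that of Ltbp1, Ltbp3 and Ltbp4, and the shares of Ltbp3, Ltbp2 and Tgfb3 in their families, per library with mean and SD. The ratio lies between 1.37 and 1.94 in knockout and between 1.00 and 1.31 in control libraries. The shares overlap in 1 or more libraries.

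Across libraries within a group, Adamtsl2 varied most closely with Ltbp1 and Ltbp2 among the 9 genes. After subtraction of the group means, Pearson's r of log2 CPM with Adamtsl2 over the 12 libraries was 0.77 for Ltbp1 and 0.75 for Ltbp2, which ranked 36 and 49 among the 13473 tested genes whose log2 CPM averaged 1 or more. It was 0.48 for Tgfb3, 0.30 for Ltbp3 and 0.14 for Fbn1. Taken in each group alone (n = 6 each), r for Ltbp1 was 0.52 in knockout and 0.89 in control libraries. For Ltbp2 it was 0.72 in knockout and 0.77 in control libraries, and for Fbn1 -0.18 in knockout and 0.38 in control libraries. The 5 genes most like Adamtsl2 by this measure were Map3k14 (0.91), Zfp810 (0.85), Tmem30b (0.85), Frmpd1 (0.85) and Zfp934 (0.85). Map3k14 encodes NIK, a kinase of non-canonical NF-kappa B signalling. It stood at 27.5 ± 2.89 CPM in knockout and 23.2 ± 3.31 CPM in control libraries (SD, n = 6 each), and none of the 5 passed the threshold between the groups, their adjusted p-values running from 0.370 to 0.946 in edgeR's quasi-likelihood test. These correlations are descriptions over libraries that differ in depth and tissue make-up, differences that all genes of a library share. The 5 genes were taken as the highest of those ranked.

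No gene of the 5 lists of related genes passed the adjusted threshold with edgeR. The lists are described by their counts and medians beside the 0.00 median of all tested genes. Of 9 tested ADAMTS-like proteins and microfibril proteases, 5 had positive and 4 negative log2 fold changes (median 0.06). At an unadjusted p of 0.05 there were 0, against 9.47% of all tested genes. Papln, the papilin gene, stood at 0.91 ± 0.27 CPM in knockout and 1.14 ± 0.10 CPM in control libraries, and Adamtsl3, a relative of Adamtsl2, at 20.4 ± 8.73 CPM in knockout and 16.0 ± 5.86 CPM in control libraries (SD, n = 6 each). The Papln difference was smaller than the knockout SD and larger than the control SD. For Papln 4 of 6 knockout libraries lay below all controls and 1 above. Adamtsl3 differed by less than the SD of either group.

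Of 21 microfibril and elastic fibre proteins, 7 were positive and 14 negative with a median of -0.13, and 2 were lower at an unadjusted p of 0.05, which 9.47% of all tested genes reached. The median was -0.02 without control replicate 6 and -0.19 without knockout replicate 6. The 2 genes were Dcn, the proteoglycan decorin, at 365 ± 88.5 CPM in knockout and 510 ± 90.8 CPM in control libraries, and Hspg2, perlecan, at 461 ± 44.6 CPM in knockout and 526 ± 43.4 CPM in control libraries (SD, n = 6 each). Their adjusted p-values were 0.277 and 0.495 (edgeR quasi-likelihood). DESeq2 and limma-voom called 0 genes of both lists.

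Of 17 TGF-beta activators and carriers, 11 were positive and 6 negative with a median of 0.06, which turned to -0.03 without knockout replicate 6. There was 1 higher and 1 lower gene at an unadjusted p of 0.05, against 9.47% of all tested genes. Bmp1, a protease that cleaves procollagens and LTBP1, stood at 169 ± 11.4 CPM in knockout and 203 ± 17 CPM in control libraries, and Itgb6, a subunit of an integrin that activates latent TGF-beta, at 36.1 ± 6.68 CPM in knockout and 29.3 ± 3.16 CPM in control libraries (SD, n = 6 each). Bmp1 was lower than all controls in 5 of 6 knockout libraries, with an adjusted p of 0.139 in edgeR's quasi-likelihood test. DESeq2 called 1 gene of this list, which was Bmp1, where it called 315 genes lower over the whole table. Limma-voom called 0 of the list.

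Of 16 TGF-beta receptors and SMADs, 8 were positive and 8 negative with a median of 0.01, which turned to -0.04 without knockout replicate 6. At an unadjusted p of 0.05, 2 were higher and 2 lower, against 9.47% of all tested genes. Acvrl1, the receptor ALK1 of endothelium, stood at 35.3 ± 3.14 CPM in knockout and 41.1 ± 2.81 CPM in control libraries, and Tgif1, a repressor of SMAD transcription, at 37.2 ± 5.38 CPM in knockout and 30.9 ± 1.64 CPM in control libraries (SD, n = 6 each). Tgif1 lay above all controls in 5 of 6 knockout libraries and below all controls in the remaining one. Without knockout replicate 2, edgeR called 2 genes of this list, Tgif1 and Skil, where it called 24 genes higher over the whole table. DESeq2 and limma-voom called 0 of the list, and the median was -0.02 with limma-voom.

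Of 19 tested TGF-beta response genes, 12 were positive and 7 negative with a median of 0.14, and of 0.08 without knockout replicate 6. At an unadjusted p of 0.05, 4 were higher and 2 lower, against 9.47% of all tested genes. Skil, which encodes a SMAD repressor induced by TGF-beta and is also on the list of receptors and SMADs, stood at 57.3 ± 9.96 CPM in knockout and 46.1 ± 3.61 CPM in control libraries, whereas Col3a1, a fibrillar collagen chain, stood at 3815 ± 789 CPM in knockout and 5176 ± 502 CPM in control libraries (SD, n = 6 each). Their adjusted p-values were 0.290 and 0.234 (edgeR quasi-likelihood). DESeq2 called 0 genes of the list and limma-voom 1, Col3a1, while edgeR without knockout replicate 2 called Skil. Over the whole table limma-voom called 325 genes lower, and edgeR without knockout replicate 2 called 24 higher. Ltbp2 is a member of this list as well.

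**Figure D5:**
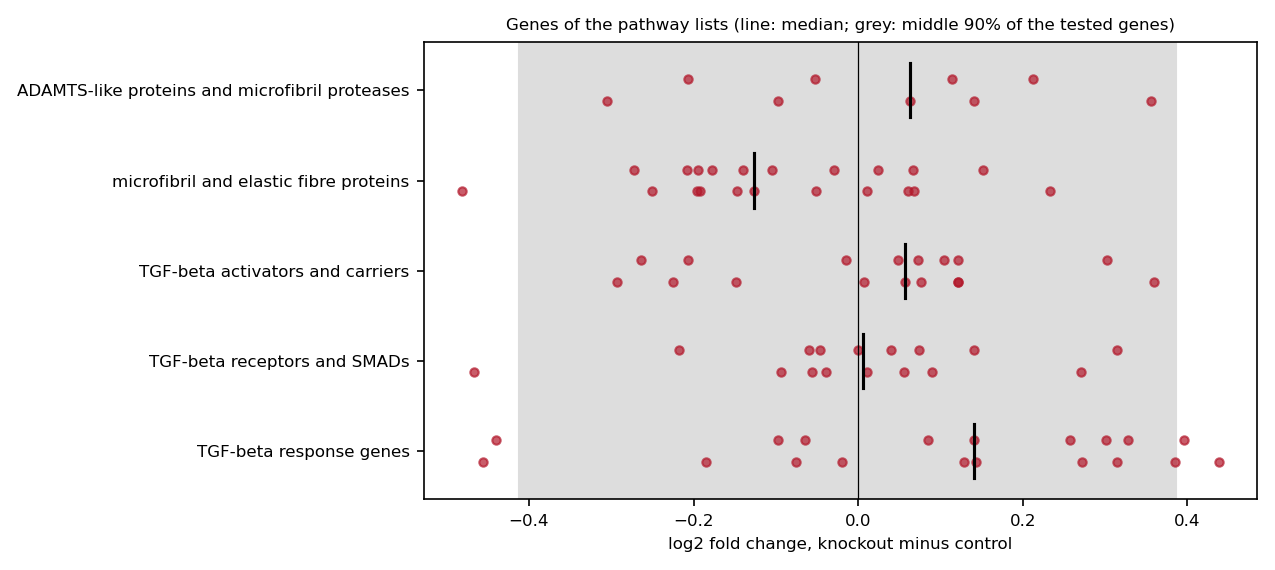
Log2 fold change, knockout minus control, of each tested gene of the 5 lists, with the list medians as lines and the middle 90% of all tested genes in grey. The medians run from -0.13 for microfibril and elastic fibre proteins to 0.14 for TGF-beta response genes.

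Adipocyte markers, and most markers of FAPs and fibroblasts, had lower means in the knockout. What part any cell type had in the results above was not tested. The log2 fold changes of all 12 adipocyte markers were negative (median -1.60). In 8 of them every knockout library lay below all controls, against 1.27% of all tested genes. With edgeR 3 fell, Fabp4, Lpl and Adrb3, against 0.75% of all tested genes called lower. DESeq2 called 9 of these markers lower, where it called 315 genes lower over the whole table. The counts with limma-voom were 8 markers and 325 genes. Without knockout replicate 3, knockout replicate 4 or control replicate 4, edgeR called 0, while the median stayed between -1.57 and -1.55. Their summed level was 774 to 2830 CPM in knockout and 3912 to 6118 CPM in control libraries. Of 12 markers of FAPs and fibroblasts 10 had a negative log2 fold change (median of the list -0.17), and 2 fell with edgeR, Col15a1 and Gsn, against the same 0.75%. DESeq2 called 3, Dpt as well, and limma-voom 2, beside the 315 and 325 genes that they called lower over the whole table. Without knockout replicate 3, knockout replicate 4, control replicate 2 or control replicate 4, edgeR called 0, with medians between -0.24 and -0.15. Their sum was 1297 to 1920 CPM in knockout and 1881 to 2470 CPM in control libraries, below all controls in 5 of 6 knockout libraries. Of 10 markers of satellite cells and myoblasts 0 passed with edgeR. At an unadjusted p of 0.05, 4 were higher, while 9.47% of all tested genes reached it in either direction. DESeq2, limma-voom and edgeR without knockout replicate 2 each called 2 as higher, Cdh15 and Myod1. Over the whole table these fits called 57, 64 and 24 genes higher, against 8 in the main edgeR fit. The sum of the 10 markers was 2289 to 4327 CPM in knockout and 2250 to 3594 CPM in control libraries. Most of it was Des, the desmin gene that muscle fibres also express, at 2961 ± 757 CPM in knockout and 2667 ± 565 CPM in control libraries (SD, n = 6 each). Without Des, a split chosen after seeing the data, the other 9 markers summed to 337 to 632 CPM in knockout and 325 to 431 CPM in control libraries, with 4 of 6 knockout libraries above every control. For differentiating myocytes, log2 fold changes of all 10 markers were positive, against 49.5% of all tested genes. At an unadjusted p of 0.05, 5 were higher, against the same 9.47%, while edgeR, DESeq2 and limma-voom called 0. Their sum was 7038 to 13062 CPM in knockout and 6129 to 10438 CPM in control libraries.

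Markers of mural cells summed to 2833 to 5024 CPM in knockout and 2818 to 4251 CPM in control libraries. Without Des they summed to 918 to 1182 CPM in knockout and 869 to 1149 CPM in control libraries. Of these markers 0 of 10 passed the threshold in edgeR, and 1 reached an unadjusted p of 0.05, against 9.47% of all tested genes. Markers of tenocytes summed to 715 to 1258 CPM in knockout and 542 to 1364 CPM in control libraries. Here 0 of 9 passed the threshold in edgeR, and 1 reached an unadjusted p of 0.05, against the same 9.47%. DESeq2 and limma-voom called 0 genes of these lists. Macrophage markers summed to 5451 to 9374 CPM in knockout and 7126 to 8655 CPM in control libraries. By this sum 4 of the 6 knockout libraries lay below all controls and 1 above. Log2 fold changes were positive for 6 of the 10 macrophage markers and negative for 4. Their median was 0.07, and -0.05 without knockout replicate 2. Endothelial markers summed to 242 to 424 CPM in knockout and 329 to 427 CPM in control libraries, with 2 of 6 knockout libraries below all controls and 0 above. Of the 10 endothelial markers 1 had a positive and 9 a negative log2 fold change. Their median was -0.08, and 0.01 without knockout replicate 3. No marker of the 8 cell types named here was at 0 in any library.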

How the data were processed

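The authors deposited whole-number read counts per gene and a table of FPKM values for the same 12 libraries. The submitters' processing notes name fastp, HISAT2 2.0.5, featureCounts and GRCm38 (mm10). The strand setting of the counting and the read total behind the deposited FPKM values are not given in what was used here. Libraries were made from RNA bound to poly-T beads, per the labels' protocols, which describe both directional and non-directional preparation.

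Counts were fitted with edgeR 4.0.16 in R 4.3.3: filterByExpr (minimum count 10, minimum total 15), TMM scaling, robust quasi-likelihood F tests over all 16393 kept genes, Benjamini-Hochberg adjustment and a threshold of 0.05. Log2 fold changes are knockout minus control; log2 CPM used a prior count of 2. Each standard error is the log2 fold change divided by the root of F, and 95% intervals from the t distribution with the fit's degrees of freedom. The fit was tested on simulated data. DESeq2 1.42.0 and limma 3.58.1 served as alternatives, with scaling, filters, the replicate number as a block and each library left out in turn. The 30 within-group pairs of libraries had a chi-square per degree of freedom from 11.9 to 143.5, above sampling noise, so no library was counted as a duplicate.

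The genes, the gene lists and the tests were chosen with earlier results of these data known. For that reason the exact permutation tests designed for the ratios are not reported, and the ratios are descriptions. Named list genes are the 2 with the smallest p where fewer than 2 passed. The list of TGF-beta response genes held Ctgf also under its newer name Ccn2, and 1 gene of the protease list, Adamts19, was not tested. Over the lists of endothelium, macrophages, mature fast fibres, Schwann cells and platelets, edgeR, DESeq2 and limma-voom called 0 genes. In edgeR 0 of them reached an unadjusted p of 0.05, against 9.47% of all tested genes. Sequences are from RefSeq, GRCm38.p6.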

Additional observations from a re-analysis of the deposited data

How the results depend on the processing

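The number of genes that passed over the whole table was 131 (8 higher, 123 lower) and depended on the tool and on single libraries. It was 372 with DESeq2 (57 higher, 315 lower), 389 with limma-voom (64 higher, 325 lower) and 236 with the replicate block (15 higher, 221 lower). With each library left out in turn it ran from 6 to 214 genes, with 1 to 24 higher and 5 to 190 lower. The lowest counts were 6 without knockout replicate 3, 9 without knockout replicate 4 and 12 without control replicate 4. Same-numbered libraries of the groups correlated between -0.13 and 0.46 and only 1 of 6 correlated best with its own number, so the replicate numbers were not taken as pairs.

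The log2 fold change of Adamtsl2 was 0.41 on the log2(FPKM + 1) scale, where the pseudocount exceeds its control level, and 1.02 with limma-voom, the highest of the 9 alternatives other than leaving out libraries. It passed in 3 of 12 fits with single libraries left out. Ltbp3 passed at -0.40 with DESeq2, at -0.41 with limma-voom and at -0.41 with the replicate block (adjusted p = 0.0184, edgeR quasi-likelihood); it missed the threshold under the other 6 of these alternatives and in all 12 fits without single libraries, and the cause was not tested. With single libraries left out, Ltbp1 ran from -0.162 to 0.0139, turning positive without control replicate 6. Tgfb1, at 0.01, turned to -0.0123 with limma-voom and ran from -0.0316 to 0.0719 with single libraries left out, turning negative without knockout replicates 1, 2 or 6 or control replicate 3. The other 6 genes kept their direction and their side of the threshold under every alternative. The sizes of Fbn1, Fbn2, Ltbp4 and Tgfb2 moved by over 1.5 times with single libraries left out, from -0.24 to -0.05 for Fbn1, 0.13 to 0.46 for Fbn2, -0.14 to -0.03 for Ltbp4 and 0.00 to 0.08 for Tgfb2. Adamtsl2 had as few as 59 reads in a library, and depth as a limit was not tested.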
